A study of Mus musculus with 36 samples.

Results

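The 35 genes described here are well-known targets of interferon gamma: 13 inducible GTPases, 8 genes of antigen presentation by major histocompatibility complex (MHC) class I, 7 genes of presentation by MHC class II, and 7 chemokines, transcription factors and feedback genes. They were picked by gene symbol from the 38283 genes of the count table, with earlier results of these data known, and all 35 were found. Livers of 36 male mice, all 16 weeks old, were measured. Wild-type littermates and WT/Y657* animals were each studied in 3 states, 6 mice to a group: with free access to chow (fed), after 16 h without food (fasted), and 6 h after food was returned at the end of such a fast (refed). WT/Y657* mice are heterozygous in every cell for a nonsense allele of Pik3r1, the regulatory subunit gene of phosphoinositide 3-kinase, as found in human SHORT syndrome, and so model a lifelong defect of insulin signalling rather than one that begins in the adult liver. The allele was knocked into C57Bl/6 embryonic stem cells next to a floxed selection cassette, the line was backcrossed to C57Bl/6J, and the controls carried no mutant allele.

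Interferon gamma is secreted mainly by T cells and natural killer cells. It binds a receptor of IFNGR1 and IFNGR2 chains, and the signal passes through the kinases JAK1 and JAK2 to the GAS element of target genes. Among these targets are transcription factors such as IRF1, which acts on the ISRE, and CIITA and NLRC5, which switch on the class II and class I genes. The guanylate-binding proteins (GBPs) and immunity-related GTPases (IRGs) attack the vacuoles in which intracellular parasites and bacteria live. Class I molecules show peptides from inside the cell to CD8+ T cells and are made by almost every cell type, whereas class II molecules show peptides taken up from outside to CD4+ T cells and are made mainly by dendritic cells, macrophages and B cells. In liver, the resident macrophages are Kupffer cells.

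RefSeq promoters (GRCm38.p6, 250 bases before to 50 after the start) were at hand for 27 of the 35 genes. The motifs searched on both strands were TTCNNNGAA for the GAS, GAAA repeated after any 2 bases for the ISRE, and CTGATTGG for the Y box that is common in MHC promoters. The GAS letters were in 9 of the 27 promoters (33.3%, against 9.55% of 27025 promoters of all genes), the ISRE letters in 13 (48.1% against 3.99%) and the Y box in 9 (33.3% against 4.7%). Of 10 GTPase promoters, 9 held the ISRE letters, 6 the GAS letters and 0 the Y box, while the Y box was in 4 of 6 class I promoters (H2-K1, H2-D1, H2-T23 and Tap1) and in 2 of 4 class II promoters. The Y box was not confined to MHC genes, as it was in 3 of 7 promoters of the chemokine and regulator group (Cxcl9, Cxcl10 and Irf8). The ISRE letters were also in 2 of 6 class I promoters (H2-T23 and B2m, 33.3%) and in 0 of 4 class II promoters. In the 4 IRG genes Irgm2, Igtp, Tgtp1 and Tgtp2 a GAS was followed 11 bases further on by an ISRE. The stretches below show the motifs in genes called in the comparisons that follow, with H2-D1, which was called in none, as a class I example, and capitals mark the matched letters.
Irgm2, chr11:58214890-58214934, plus strand, GAS then ISRE: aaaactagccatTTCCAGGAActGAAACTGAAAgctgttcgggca
Igtp, chr11:58199499-58199543, plus strand, GAS then ISRE: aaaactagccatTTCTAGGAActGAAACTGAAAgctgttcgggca
Tgtp1, chr11:48992302-48992346, minus strand, GAS then ISRE: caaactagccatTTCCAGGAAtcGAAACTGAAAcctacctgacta
Gbp7, chr3:142530218-142530304, plus strand, a pair of GAS matches then the ISRE read on the other strand: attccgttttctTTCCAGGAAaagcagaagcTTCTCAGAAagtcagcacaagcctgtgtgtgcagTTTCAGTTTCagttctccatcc
Irgm1, chr11:48871423-48871462, minus strand, overlapping ISRE matches: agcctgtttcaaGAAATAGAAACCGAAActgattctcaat
Irf1, chr11:53769912-53769944, plus strand, GAS: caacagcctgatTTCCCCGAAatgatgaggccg
H2-Aa, chr17:34287855-34287886, minus strand, Y box: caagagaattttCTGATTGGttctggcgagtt
H2-Eb1, chr17:34305793-34305824, plus strand, Y box: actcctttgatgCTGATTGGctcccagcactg
H2-D1, chr17:35263029-35263060, plus strand, Y box read on the other strand: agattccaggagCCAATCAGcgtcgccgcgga
The Irgm2 and Igtp stretches are nearly the same sequence. A match is a description of letters, and binding was not measured.

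The deposited values were estimated read counts per gene, with 8839488 to 19542775 counts per liver (median 13596665.5). Levels below are CPM, the depth-scaled read count of a gene with TMM scaling, and differences are log2 fold changes from edgeR's quasi-likelihood test. Calls needed an adjusted p (Benjamini-Hochberg, over the 13945 genes tested) under 0.05. Of the 35 genes 34 were tested; Socs1, a feedback inhibitor of JAK kinases, had too few counts, with medians from 0.154 to 0.391 CPM in the 6 groups. The common biological coefficient of variation was 0.181. In whole liver, fewer cells of a type and less RNA per cell cannot be told apart.

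Per kilobase of exon, 3 class I genes were the most abundant of the set in these livers. Over all mice B2m, the light chain of class I molecules, was at 1218 CPM per kilobase, the heavy chain genes H2-K1 at 301 and H2-D1 at 147. The non-classical H2-T23 was at 35.4, below Iigp1 and Cd74, and Tap2, Tap1 and Nlrc5 were at 5.86, 4.80 and 2.90. Among the GTPases Iigp1 was at 56.7 CPM per kilobase, Igtp at 15.2, Irgm2 at 12.9 and Irgm1 at 9.15, whereas the 6 GBP genes were at 0.284 (Gbp5) to 3.48 (Gbp7). Cd74, the invariant chain that guards the class II groove, was at 37.5 CPM per kilobase, the class II chains H2-Eb1, H2-Ab1 and H2-Aa at 9.89, 9.65 and 7.28, and the master regulator Ciita at 0.286. Of the remaining genes Irf1 was at 9.20 and the chemokine Cxcl9 at 2.21. Several of these genes share sequence with a close relative, so the authors' counting could have split their reads: 81.2% of 50-base windows of Tgtp1 and 86.6% of Tgtp2 matched another gene, mainly each other, as did 70.7% for Gbp6, 22.7% for H2-DMb1, 15.5% for Serpina3g, 13.6% for H2-T23, 12.8% for H2-D1, 12.7% for Gbp7 and 11.8% for Igtp. The levels of these genes are uncertain to that extent. Igtp and Irgm2 also overlap on chromosome 11. The identifiers that the table gives for Gbp5 and Gbp6 belong to Gbp2b and Gm43302 in GENCODE M21, while its symbols and positions are those of Gbp5 and Gbp6; symbol and position were followed, and the identity of these 2 genes is uncertain to that extent.

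Group medians are given here in the order fed, fasted, refed. Among the GBPs, Gbp3 had medians of 4.88, 8.35 and 6.41 CPM in wild-type livers, against 10.4, 4.82 and 7.21 in those of WT/Y657* mice. Gbp5 had medians of 0.955, 1.88 and 1.32 CPM in wild-type livers, against 2.58, 1.66 and 1.54 in those of WT/Y657* mice. Gbp6 had medians of 6.51, 8.54 and 9.81 CPM in wild-type livers, against 8.99, 4.96 and 9.85 in those of WT/Y657* mice. In these 3 the fed and fasted medians stood in opposite order in the 2 genotypes, lower fed in wild-type and higher fed in WT/Y657* mice. Gbp7 had medians of 17.8, 18.2 and 19.7 CPM in wild-type livers, against 20, 10.1 and 19.9 in those of WT/Y657* mice. Iigp1 had medians of 333, 406 and 307 CPM in wild-type livers, against 327, 283 and 305 in those of WT/Y657* mice. Irgm1 had medians of 59.1, 58.3 and 47.4 CPM in wild-type livers, against 57.7, 37.2 and 53.3 in those of WT/Y657* mice. The lowest median of each of these 3 was that of fasted WT/Y657* mice. Irgm2 had medians of 42.6, 68.3 and 33.5 CPM in wild-type livers, against 43.8, 39.1 and 41.5 in those of WT/Y657* mice. Igtp had medians of 18.9, 35.4 and 27 CPM in wild-type livers, against 22, 20.1 and 40.9 in those of WT/Y657* mice. Their highest wild-type median was in the fast. Tgtp1 had medians of 0.752, 1.28 and 0.698 CPM in wild-type livers, against 1.15, 0.987 and 1.30 in those of WT/Y657* mice. Tgtp2 had medians of 0.537, 1.15 and 0.482 CPM in wild-type livers, against 0.832, 1.03 and 0.592 in those of WT/Y657* mice. The medians of the GTPases not listed were 4.96 to 7.65 CPM for Gbp2, 5.36 to 8.26 for Gbp9 and 10.2 to 24.6 for Ifi47.

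Of the class I genes, H2-K1 had medians of 925, 984 and 777 CPM in wild-type livers, against 917, 792 and 829 in those of WT/Y657* mice. H2-T23 had medians of 94.3, 113 and 94.9 CPM in wild-type livers, against 106, 93.0 and 96.1 in those of WT/Y657* mice. B2m had medians of 1094, 1118 and 946 CPM in wild-type livers, against 1151, 979 and 1022 in those of WT/Y657* mice. Tap1 had medians of 26.9, 31.2 and 23.1 CPM in wild-type livers, against 29.7, 19.7 and 24.2 in those of WT/Y657* mice. Tap2 had medians of 25.7, 18.2 and 20.9 CPM in wild-type livers, against 26.6, 16.8 and 24.9 in those of WT/Y657* mice. Tapbp had medians of 97.7, 91.7 and 80.7 CPM in wild-type livers, against 100, 82.6 and 88.5 in those of WT/Y657* mice. For these 3 peptide pump and loading genes fasted WT/Y657* mice had the lowest median except for Tapbp, where refed wild-type mice did. Nlrc5 had medians of 23.2, 28.6 and 22.3 CPM in wild-type livers, against 20.8, 27.8 and 20.9 in those of WT/Y657* mice. H2-D1 had medians from 332 to 398 CPM.

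Of the class II genes, H2-Aa had medians of 16.5, 32.7 and 17.5 CPM in wild-type livers, against 40.9, 23.8 and 18.8 in those of WT/Y657* mice. H2-Eb1 had medians of 11.8, 24.3 and 12 CPM in wild-type livers, against 28.1, 14.4 and 11.9 in those of WT/Y657* mice. H2-DMa had medians of 1.75, 2.71 and 1.48 CPM in wild-type livers, against 3.93, 1.92 and 1.97 in those of WT/Y657* mice. The highest of the 6 medians was that of fed WT/Y657* mice for each. H2-DMb1 had medians of 1.72, 2.62 and 1.75 CPM in wild-type livers, against 3.91, 2.18 and 2.49 in those of WT/Y657* mice. Cd74 had medians of 42.4, 70.8 and 37.8 CPM in wild-type livers, against 97.2, 50.6 and 42.1 in those of WT/Y657* mice. Ciita had medians of 1.53, 3.12 and 2.11 CPM in wild-type livers, against 2.58, 2.75 and 1.96 in those of WT/Y657* mice. The same held for H2-DMb1 and Cd74, and for Ciita the highest median was in fasted wild-type mice. H2-Ab1 had medians from 14 to 36.3 CPM. Among chemokines and regulators, Cxcl9 had medians of 4.46, 5.46 and 2.91 CPM in wild-type livers, against 8.47, 4.48 and 5.77 in those of WT/Y657* mice. Cxcl10 had medians of 0.880, 2.76 and 1.61 CPM in wild-type livers, against 2.89, 1.68 and 2.24 in those of WT/Y657* mice. Irf1 had medians of 35.1, 33.4 and 39.9 CPM in wild-type livers, against 42.8, 26.6 and 37.8 in those of WT/Y657* mice. For these 3 it was again fed WT/Y657* mice that had the highest median. Irf8 had medians of 5.53, 6.98 and 5.48 CPM in wild-type livers, against 9.27, 8.16 and 6.98 in those of WT/Y657* mice. Cd274 had medians of 2.12, 2.55 and 1.67 CPM in wild-type livers, against 1.86, 2.57 and 2.57 in those of WT/Y657* mice. Serpina3g had medians of 4.55, 6.52 and 3.37 CPM in wild-type livers, against 5.25, 7.58 and 4.53 in those of WT/Y657* mice. Irf8 is a myeloid and B cell transcription factor, and Cd274 encodes the T cell inhibitor PD-L1.

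In fed mice, 3 class II genes, 2 GBPs and the chemokine Cxcl9 were higher in WT/Y657* than in wild-type livers, with the highest levels in 2 or 3 of the 6 mice. Of the 34 genes tested, 6 rose in WT/Y657* mice and 0 fell, against 2.37% of all genes called in this comparison (1.21% higher, 1.15% lower). The 6 were 3 of 7 class II genes (H2-Aa, H2-DMb1 and Cd74), 2 of 13 GTPases (Gbp3 and Gbp5), 1 of 6 genes of the chemokine and regulator group (Cxcl9), and 0 of 8 class I genes. The median log2 difference was 1.33 over the class II genes, 0.94 over the GTPases and 0.11 over the class I genes, beside 0.0079 over all genes.

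H2-Aa, the alpha chain of the class II molecule I-A, ranged from 11.7 to 18.5 CPM (median 16.5) in fed wild-type mice and from 15.2 to 87.5 (median 40.9) in fed WT/Y657* mice. The ranges overlapped, with replicates 6 (15.2 CPM) and 1 (16.7) inside the wild-type range and replicates 3 (62.1), 4 (87.5) and 5 (53.7) far above it. The log2 fold change was 1.47 ± 0.38 (standard error; adjusted p = 0.0331, edgeR). Cd74 lay between 32 and 50.1 CPM (median 42.4) in wild-type mice and between 43.0 and 198 (median 97.2) in WT/Y657* mice, and its log2 fold change was 1.35 ± 0.34 (standard error; adjusted p = 0.0296, edgeR). H2-DMb1, part of the exchange factor that loads peptides onto class II, went from 0.818 to 2.57 CPM (median 1.72) in wild-type and from 1.43 to 8.08 (median 3.91) in WT/Y657* mice, or 1.28 on the log2 scale (standard error 0.32, adjusted p = 0.0270, edgeR). The class II genes that missed the threshold had similar sizes: H2-Eb1 1.42 (adjusted p = 0.0516, edgeR), H2-Ab1 1.33 (0.0654), Ciita 1.23 (0.0505) and H2-DMa 1.12 (0.0725).

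Among the GTPases, Gbp3 ranged from 3.73 to 6.5 CPM (median 4.88) in fed wild-type mice and from 5.56 to 19.8 (median 10.4) in fed WT/Y657* mice, and 5 of the 6 WT/Y657* mice lay above every wild-type mouse. Its log2 fold change was 1.20 ± 0.30 (standard error; adjusted p = 0.0283, edgeR). Gbp5, which also promotes inflammasome assembly, was at 0.561 to 2.29 CPM (median 0.955) against 1.65 to 5.15 (median 2.58), or 1.37 on the log2 scale (standard error 0.31, adjusted p = 0.0148, edgeR). Tgtp1 had a log2 difference of 2.38 with a standard error of 0.68 (adjusted p = 0.0529), and Gbp9 had 0.92 (0.0545); neither was called. The IRGs Irgm1, Irgm2 and Iigp1 differed by 0.16, 0.33 and 0.10 on the log2 scale and were not called. Cxcl9, which draws CXCR3-bearing T cells, ranged from 3.03 to 5.71 CPM (median 4.46) in wild-type mice and from 2.33 to 40.8 (median 8.47) in WT/Y657* mice. Of this group replicates 3 (30.5 CPM), 4 (40.8) and 5 (12) lay above every wild-type mouse, and the log2 fold change was 1.84 ± 0.51 (standard error; adjusted p = 0.0471, edgeR). Of the 8 class I genes 0 were called: the log2 difference was 0.027 for H2-K1 (standard error 0.082), 0.018 for H2-D1 (0.12) and 0.082 for B2m (0.077), and the highest was 0.29 for H2-T23 (adjusted p = 0.121, edgeR).

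**Figure D1:**
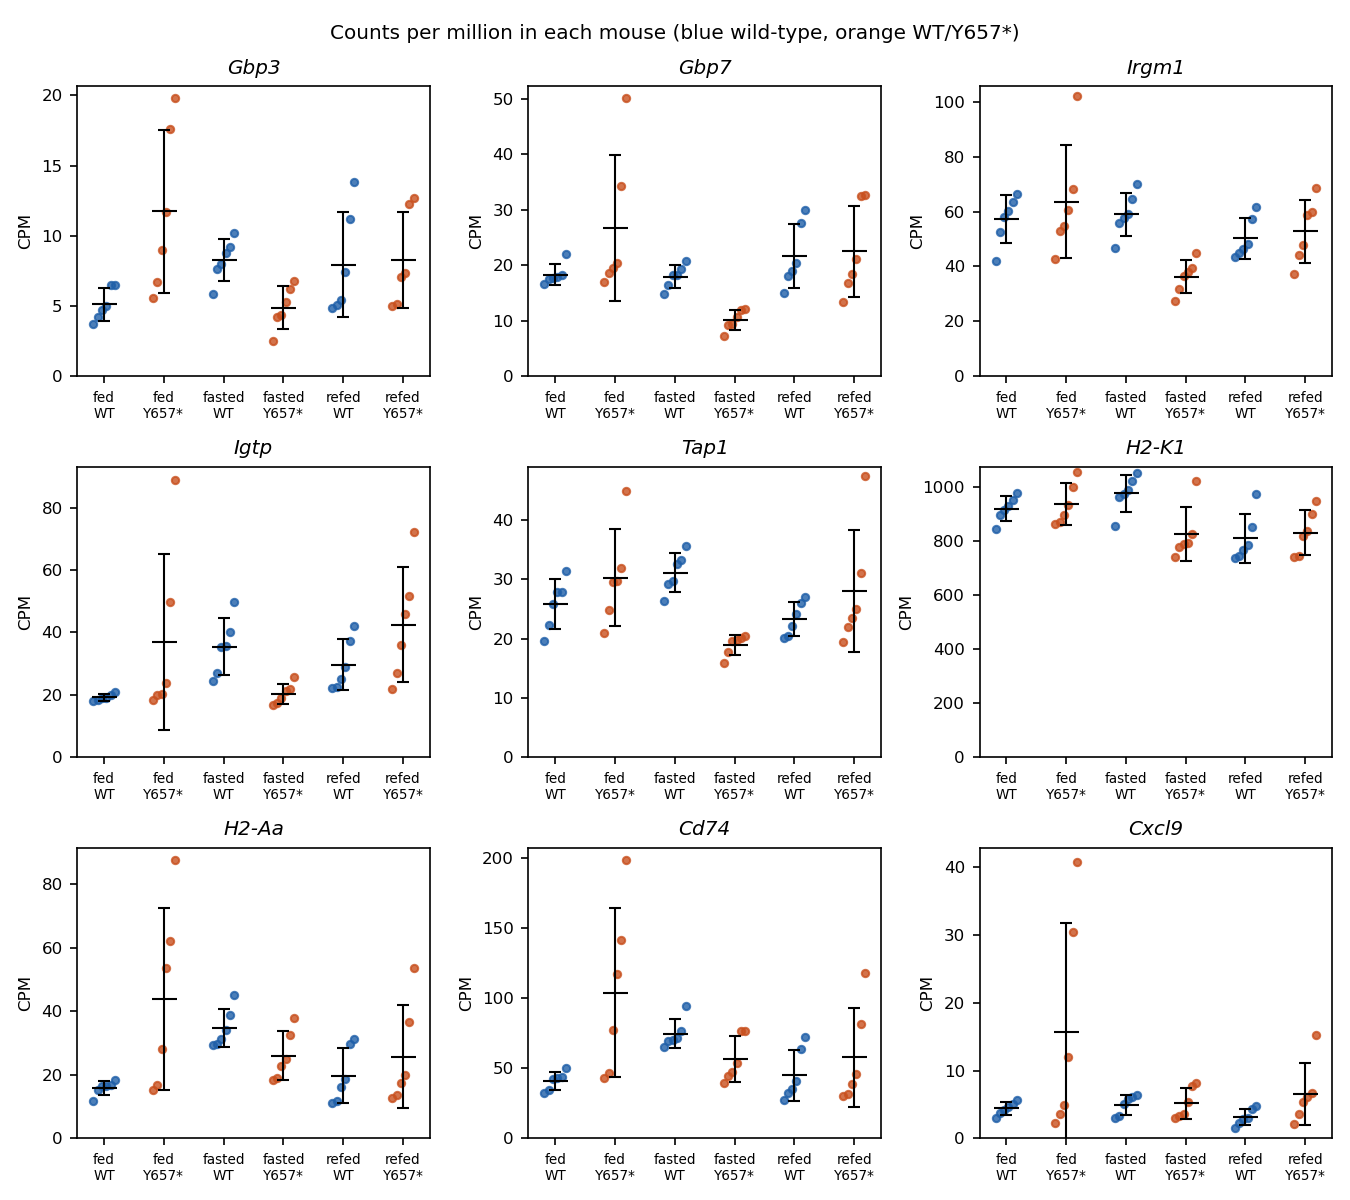
CPM of 9 of the genes in each mouse (points, sorted within a group), with the mean and SD of each group of 6 in black; the y axis is linear and starts at 0, with wild-type (WT) in blue and WT/Y657* (Y657*) in orange. In fed WT/Y657* mice H2-Aa reached from 15.2 to 87.5 CPM while the 6 wild-type mice stayed between 11.7 and 18.5, and in fasted mice the 2 genotypes did not overlap for Gbp7, Irgm1 and Tap1.

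The same mice were high for nearly every gene of the set. In fed WT/Y657* mice replicate 4 had the highest level of its group for 30 of the 34 genes and replicate 3 the highest or second highest for 32. As the mean over a list of log2 levels centred on each gene, the GTPases were at 1.03 in replicate 3 and 1.53 in replicate 4, against -0.17 to 0.11 in the other 4 fed WT/Y657* mice and -0.38 to -0.089 in the 6 fed wild-type mice. For class II, replicates 3, 4 and 5 were at 1.25, 1.71 and 0.91, and replicates 6, 1 and 2 at -0.41, -0.41 and 0.23, beside -0.90 to -0.30 in wild-type mice. The mouse numbers in the labels of fed mice form 3 runs. The highest run holds these 3 WT/Y657* mice only and the lowest run 4 wild-type mice only. In the middle run, the only one with both genotypes, mean H2-Aa was 14.1 CPM in 2 wild-type mice against 20 for 3 of WT/Y657* genotype, Cd74 33.2 and 55.5, Gbp3 4.22 and 7.10, Gbp5 1.46 and 2.10, H2-DMb1 1.28 and 2.63, and Cxcl9 3.38 and 3.62. The labels do not say what a run of numbers stands for.

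Without replicates 3 and 4 of the fed WT/Y657* group, 0 of the 34 genes were called in fed mice, and of all genes 15 of 14180 were. The log2 fold changes were then 0.84 for H2-Aa (adjusted p = 0.436), 0.80 for Cd74 (0.403), 0.85 for H2-DMb1 (0.347), 0.70 for Gbp3 (0.415), 0.93 for Gbp5 (0.271) and 0.39 for Cxcl9 (0.809, edgeR). Leaving out 1 mouse at a time, Gbp5 lost its call only without WT/Y657* replicate 4 (adjusted p = 0.0699), H2-DMb1 without WT/Y657* replicate 3, 4 or 5 or wild-type replicate 1 or 4 (up to 0.132), Gbp3 and Cd74 in 7 of 12 fits each, H2-Aa in 8 and Cxcl9 in 9, wild-type mice among those left out. With mouse number runs as blocks the fed count was also 0, as it was over all 13945 genes. There the fed difference rests on the middle run, with 2 wild-type and 3 WT/Y657* mice. That count therefore cannot tell an absent difference from a missed one. With only the fed libraries it was 0 of these genes as well, and 30 of 12962 over all genes.

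Markers of immune cells and of stellate cells were also mostly higher in fed WT/Y657* mice, though few were called. The summed level of 10 Kupffer cell markers ranged from 304 to 444 CPM in fed wild-type and from 285 to 1019 in fed WT/Y657* mice, with 851 in replicate 3, 1019 in replicate 4 and 645 in replicate 5; all 10 had a positive genotype difference, from 0.63 to 1.39 on the log2 scale, and 0 were called. The 10 T or NK cell markers summed to 2.54 to 4.48 CPM against 4.48 to 12.2, with Nkg7 (log2 fold change 2.78, adjusted p = 0.0132) and Gzma (3.46, 0.0407; edgeR) called among the 4 tested. The 6 B cell markers summed to 1.71 to 2.80 against 2.24 to 10.3 CPM, with Cd79b called (1.43, adjusted p = 0.0399, edgeR), the 8 dendritic cell markers to 10.9 to 14.2 against 12.7 to 25.4, and the 5 neutrophil markers to 2.20 to 8.28 against 2.42 to 21.1; the neutrophil marker Ly6g was at 0 in all fed wild-type mice and at 1 count in 1 WT/Y657* mouse. The 6 markers of monocyte-derived macrophages summed to 4.0 to 15.2 against 7.89 to 28 CPM, with 0 called. The 5 stellate cell markers summed to 283 to 392 CPM against 400 to 533, without overlap. All 5 differences were positive, and Dcn was called (0.43, adjusted p = 0.0407, edgeR). At an unadjusted p under 0.05 there were 3, beside 2423 of 13945 over all genes. Within the fed WT/Y657* group the stellate sum did not follow the genes of the set. It was 533 CPM in replicate 3 but 401 in replicate 4, beside 442 and 439 in replicates 1 and 6. The hepatocyte markers summed to 63768 to 82130 CPM against 48556 to 82538. The part of these cells in the fed difference was not tested. Ifng itself was at 0 counts in every fed wild-type mouse, and at most 3 counts were seen in a fed WT/Y657* mouse, too few to test.

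**Figure D2:**
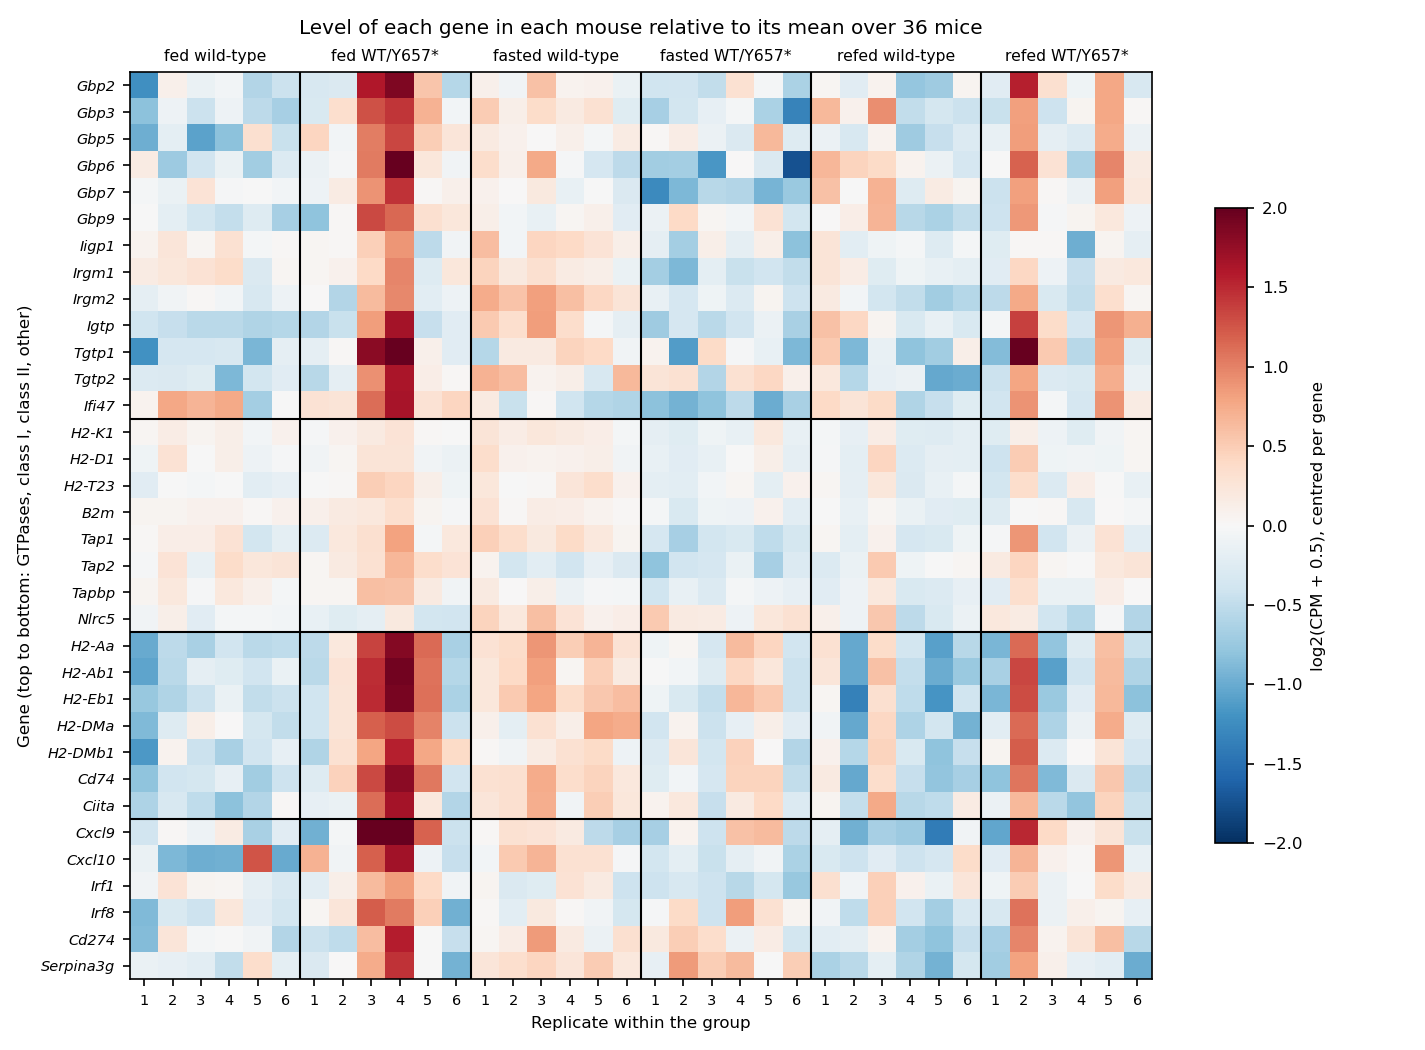
Level of the 34 tested genes (rows, by list) in each of the 36 mice (columns, by group, with the replicate number below) as log2(CPM + 0.5) minus the gene's mean over all mice; red is above and blue below that mean. Replicates 3 and 4 are red for nearly all genes of the fed WT/Y657* block and replicates 2 and 5 for most genes of the refed WT/Y657* block, and the class I genes are pale throughout.

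In fasted mice 3 IRGs, Gbp7 and 2 class I genes were lower in WT/Y657* livers. Of the 34 genes, 0 rose and 6 fell, against 13.1% of all genes called (6.43% higher, 6.63% lower). With both directions counted, 6 of 34 is near the share of all genes. All 6 calls were falls, for which the share of all genes was 6.63%. The 6 were 4 of 13 GTPases (Gbp7, Iigp1, Irgm1 and Irgm2) and 2 of 8 class I genes (H2-K1 and Tap1). Of the 7 class II genes 0 were called, with log2 differences from -0.60 to -0.19, and 0 of 6 in the chemokine and regulator group. The median log2 difference was -0.54 over the GTPases, -0.21 over class I and -0.40 over class II.

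Irgm1, an IRG that restrains the other family members and serves in autophagy, ranged from 46.8 to 70.0 CPM (median 58.3) in fasted wild-type mice and from 27.5 to 44.9 (median 37.2) in fasted WT/Y657* mice. The groups did not overlap, and the gene fell by 0.70 on the log2 scale (standard error 0.16, adjusted p = 0.00386, edgeR). Tap1, a chain of the pump that carries peptides to class I molecules, was at 26.4 to 35.6 CPM (median 31.2) against 15.9 to 20.5 (median 19.7), also without overlap, or -0.72 on the log2 scale (standard error 0.16, adjusted p = 0.00338, edgeR). Irgm2 was at 54.3 to 80.7 CPM (median 68.3) against 33.8 to 46.9 (median 39.1), again without overlap, or -0.78 on the log2 scale (standard error 0.21, adjusted p = 0.0136, edgeR). Gbp7 was at 14.8 to 20.8 CPM (median 18.2) against 7.25 to 12.2 (median 10.1), without overlap, or -0.83 on the log2 scale (standard error 0.24, adjusted p = 0.0193, edgeR).

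The other 2 differences were smaller. Iigp1, which disrupts parasite vacuoles, was at 310 to 492 CPM (median 406) in fasted wild-type and 181 to 348 (median 283) in fasted WT/Y657* mice, and fell by 0.54 (standard error 0.18, adjusted p = 0.0419, edgeR). H2-K1 reached 1055 CPM (median 984) in fasted wild-type mice and lay at 743 to 1023 (median 792) in fasted WT/Y657* mice, and it fell by 0.24 (standard error 0.082, adjusted p = 0.0435, edgeR). Both pairs of groups overlapped, and WT/Y657* replicate 5 (1023 CPM of H2-K1) lay within the wild-type range. B2m, used in the study as a reference gene for quantitative PCR, was at 1055 to 1269 CPM against 843 to 1105, a log2 difference of -0.22 that was just not called (adjusted p = 0.0516, edgeR). Cxcl10 did not overlap between the genotypes (2.03 to 3.72 CPM against 1.20 to 2.01) but was not called, with a log2 difference of -0.74 (standard error 0.41, adjusted p = 0.248).

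Leaving out mice touched these calls unequally. Irgm1, Irgm2 and Tap1 kept their call with any 1 of the 12 mice left out (highest adjusted p = 0.0160, 0.0361 and 0.0130), Gbp7 lost it only without WT/Y657* replicate 1 (adjusted p = 0.0510), and Iigp1 and H2-K1 lost theirs in 8 and 10 of 12 fits. The mouse numbers of fasted mice fell in a lower and a higher series, with 3 mice of each genotype in both. The log2 difference in the lower and the higher series was -0.83 and -0.57 for Irgm1, -0.78 and -0.61 for Tap1, -0.94 and -0.60 for Irgm2, -0.78 and -0.84 for Gbp7, -0.58 and -0.57 for Iigp1, and -0.37 and -0.13 for H2-K1. Kupffer cell markers summed to 349 to 636 CPM in fasted wild-type and 358 to 605 in fasted WT/Y657* mice, T or NK cell markers to 2.36 to 4.54 against 2.55 to 9.52, B cell markers to 3.01 to 5.93 against 1.78 to 5.32, dendritic cell markers to 15.3 to 18.8 against 13.8 to 21.3, neutrophil markers to 1.65 to 6.45 against 4.19 to 13.7 with Ly6g at 0 in both groups, and hepatocyte markers to 60657 to 91241 CPM against 71185 to 91492. The stellate cell markers summed to 340 to 409 CPM against 402 to 585. Of 6 endothelial markers 3 had positive and 3 negative differences (median 0.028), and only Lyve1 was called, higher in WT/Y657* mice (log2 fold change 1.32, edgeR). Of 5 stellate markers 3 were positive and 2 negative (median 0.35), with Dcn and Rgs5 called higher (0.42 and 0.74, edgeR). The part of these in the result was not tested.

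In refed mice 0 of the 34 genes were called, against 4 of 13945 of all genes (0.0287%; 0.0215% higher and 0.00717% lower). At an unadjusted p under 0.05 there were 5, beside 1329 of 13945 over all genes. DESeq2 also called 0, and 25 over all genes. Of the 34 differences 31 were positive with a median of 0.33, beside 7184 of 13945 over all genes with a median of 0.0060. Gbp2, at 3.69 to 7.01 CPM (median 6.24) in wild-type and 5.23 to 20.5 (median 7.30) in WT/Y657* mice, had a log2 difference of 0.78 (standard error 0.37, adjusted p = 0.511, edgeR). In refed WT/Y657* mice replicate 2 had the highest level for 29 of the 34 genes, and replicate 5 the highest or second highest for 25. Among refed wild-type mice, replicate 3 had the highest level for 24. The Kupffer cell markers summed to 915 CPM in WT/Y657* replicate 2 and 689 in wild-type replicate 3, the highest of their groups, and the neutrophil markers to 35 and 22.1; the part of these cells was not tested.

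**Figure D3:**
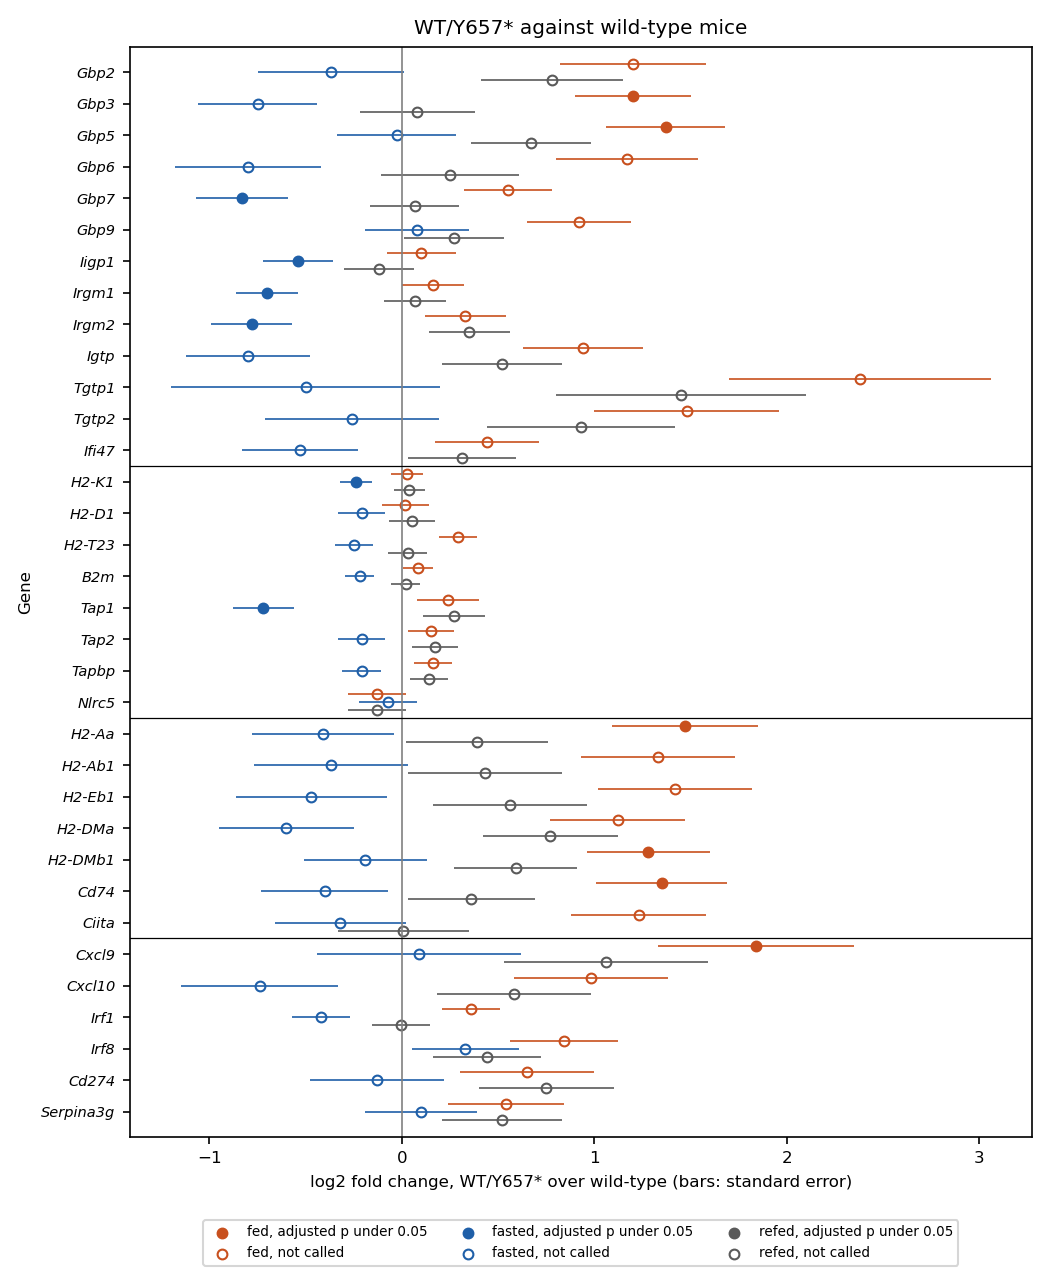
Log2 fold change of WT/Y657* over wild-type mice for the 34 tested genes in the fed, fasted and refed states, with bars of 1 standard error; filled points were called at an adjusted p under 0.05 and open points were not. Called points lie to the right of 0 in fed mice (6) and to the left in fasted mice (6), and none is filled in refed mice.

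The response to the 16 h fast was then compared within each genotype. No run or series of mouse numbers held both fed and fasted mice. The fast and the number runs therefore cannot be told apart in these contrasts, and blocks of numbers cannot adjust for this. In wild-type mice 7 of the 34 genes were called, 6 higher and 1 lower after the fast, against 32% of all genes (14.5% higher, 17.5% lower). H2-Aa rose from 11.7 to 18.5 CPM in fed mice to 29.5 to 45.0 (median 32.7) in fasted mice, without overlap (log2 fold change 1.12, standard error 0.38, adjusted p = 0.0221, edgeR). Cd74 rose from 32 to 50.1 CPM to 64.8 to 94.0 (median 70.8), also without overlap (0.86, adjusted p = 0.0497, edgeR), but lost its call in all 12 fits that left out a mouse. Ciita rose by 0.94 (adjusted p = 0.0394), a call lost in 9 of 12 fits. H2-Eb1 (1.02, adjusted p = 0.0524) and H2-Ab1 (0.78, 0.143) did not overlap between the states either and were not called. Markers of B cells and dendritic cells moved in the same direction. B cell markers summed to 1.71 to 2.80 CPM in fed and 3.01 to 5.93 in fasted wild-type mice. Dendritic cell markers summed to 10.9 to 14.2 and 15.3 to 18.8, and neither sum overlapped between the states. Of these, Cd79b and Ms4a1 (log2 fold changes 1.16 and 2.06) and Zbtb46 and Ccr7 (0.36 and 2.22) were called higher, 2 of 4 B cell and 2 of 7 dendritic cell markers tested, as were 3 of 6 endothelial markers (edgeR). All 10 Kupffer cell markers had positive differences, and 0 were called. The 5 tested markers of monocyte-derived macrophages all went the other way (median log2 difference -0.22), with 0 called. The part of these cells in the class II result was not tested.

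Of the GTPases Irgm2 rose from 36.1 to 46.3 CPM (median 42.6) in fed to 54.3 to 80.7 in fasted wild-type mice (log2 fold change 0.70, standard error 0.21, adjusted p = 0.0112, edgeR) and Igtp from 18.2 to 21 (median 18.9) to 24.6 to 49.9 (median 35.4; 0.87, standard error 0.32, adjusted p = 0.0331, edgeR). Neither overlapped between the states, and Igtp lost its call in 6 of 12 fits. Class I genes had log2 differences from -0.39 to 0.36, the highest that of Nlrc5, which was not called. H2-T23 rose by 0.27 (adjusted p = 0.0412, lost in 6 of 12 fits). Tap2, the other chain of the peptide pump, fell by 0.39 (adjusted p = 0.0115, edgeR). H2-K1, H2-D1 and B2m differed by 0.086, 0.074 and 0.051 and were not called.

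In WT/Y657* mice 20 of the 34 genes were called in fasted against fed mice, 1 higher and 19 lower, against 32.9% of all genes (15.2% higher, 17.7% lower). The 19 were 8 GTPases, 5 class I genes, 3 class II genes and 3 of the chemokine and regulator group. The 1 that rose was Nlrc5 (0.41, adjusted p = 0.0291, edgeR), beside a difference of 0.36 in wild-type mice that was not called. Gbp7 fell from 17 to 50.2 CPM (median 20) in fed to 7.25 to 12.2 in fasted mice without overlap, by 1.40 on the log2 scale (standard error 0.24, adjusted p = 2.1e-05, edgeR). Ifi47, an IRG, fell from 22.1 to 58.5 CPM (median 23.9) to 9.04 to 12.6 (median 10.2) without overlap, by 1.60 (standard error 0.29, adjusted p = 6.1e-05, edgeR). Tap1, Tap2 and Irf1 also did not overlap, and fell by 0.68, 0.75 and 0.81 (adjusted p = 0.0014, 8.3e-06 and 9.3e-05, edgeR). Irf1 was at 30.6 to 63.8 CPM (median 42.8) in fed and 20.7 to 28.3 (median 26.6) in fasted mice. Of 10 Kupffer cell markers 9 had negative differences and 1 a positive one, and all 5 tested markers of monocyte-derived macrophages were negative, with 0 called. Dendritic cell markers split into 3 positive and 4 negative and B cell markers into 2 and 2, also with 0 called. The part of these cells was not tested.

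Without fed WT/Y657* replicates 3 and 4, 8 of the 34 genes were called (4167 of 14180 over all genes, against 4591 of 13945 with all mice), 7 of them among the 20: Gbp7 (log2 fold change -0.90, adjusted p = 6.2e-04), Irgm1 (-0.54, 0.00496), Ifi47 (-1.13, 0.00232), Tap1 (-0.48, 0.0269), Tap2 (-0.65, 2.0e-04), Irf1 (-0.55, 0.00401) and Nlrc5 (0.52, 0.0142; edgeR). The class II genes were not: Cd74 was then at -0.34 (adjusted p = 0.482) and H2-DMb1 at -0.40 (0.369). Cxcl9, which had fallen by 1.59 (adjusted p = 0.0142, edgeR), was at -0.15 (0.824), and Igtp at -0.023 (0.957) after a fall by 0.86 (0.0331) with all mice. With 1 mouse left out at a time, Gbp3, Gbp6, Gbp7, Irgm1, Ifi47, B2m, Tap1, Tap2, Tapbp and Irf1 kept their calls in every fit. Cxcl9 lost its call only without fed replicate 4, Gbp2 and Cxcl10 without fed replicate 3 or 4, and Tgtp1, Igtp, Nlrc5, H2-T23, H2-DMa, H2-DMb1 and Cd74 in 3 to 7 of 12 fits.

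**Figure D4:**
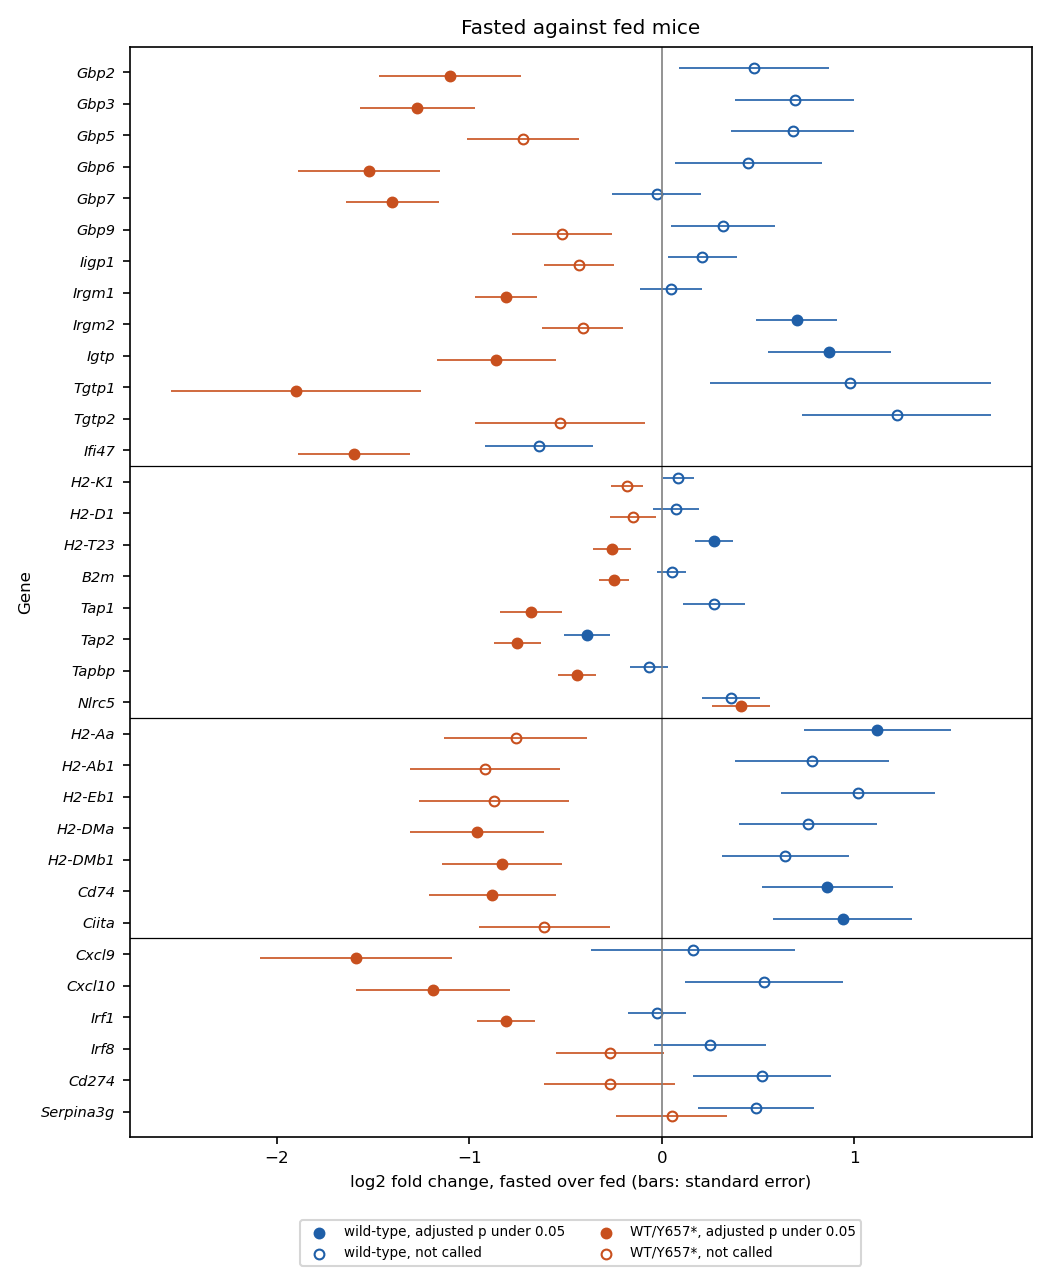
Log2 fold change of fasted over fed mice for the 34 tested genes in wild-type (blue) and WT/Y657* mice (orange), with bars of 1 standard error; filled points were called at an adjusted p under 0.05. Class II genes lie to the right of 0 in wild-type mice (up to 1.12 for H2-Aa) and to the left in WT/Y657* mice, and Gbp7, Ifi47, Tap2 and Irf1 lie to the left in WT/Y657* mice.

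The difference of these responses between the genotypes was tested in the same fit. It uses the same 24 mice as the fed and fasted comparisons and is no separate evidence. Of the 34 genes, 13 had a called difference, all lower in WT/Y657* mice, against 4.35% of all genes (2.59% higher, 1.76% lower): 6 GTPases, 2 class I genes, 4 class II genes and Irf1. Gbp3 differed by -1.96 (standard error 0.43, adjusted p = 0.00826), Gbp7 by -1.38 (0.33, 0.0146), Tap1 by -0.95 (0.23, 0.0142), Irgm1 by -0.86 (0.23, 0.0254) and Cd74 by -1.74 (0.47, 0.0310; edgeR). The others called were Gbp6 (-1.97), Irgm2 (-1.11), Igtp (-1.74), H2-T23 (-0.53), H2-Aa (-1.88), H2-Eb1 (-1.89), H2-DMa (-1.72) and Irf1 (-0.78), with adjusted p from 0.0217 to 0.0484 (edgeR). Gbp3, Gbp7 and Tap1 kept the call without any 1 of the 24 mice; fed WT/Y657* replicate 4 was among the mice whose loss ended each of the other 10. Without both fed WT/Y657* replicates 3 and 4, only Gbp3 of the 13 was called (-1.45, adjusted p = 0.0484), next to Tap1 at -0.75 (0.0596) and Gbp7 at -0.88 (0.0654), and with mouse number blocks 0 were. Over all genes the count went from 607 to 327 without those mice and to 109 with blocks.

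Refeeding was compared with the fast. In wild-type mice 0 of the 34 genes rose and 6 fell in the 6 h of refeeding, against 30.2% of all genes called (16.5% higher, 13.7% lower). Irgm2 fell from 54.3 to 80.7 CPM to 27.7 to 51.5 (median 33.5) without overlap, by 0.89 on the log2 scale (standard error 0.21, adjusted p = 0.00169, edgeR). Serpina3g, a serine protease inhibitor of lymphocytes and macrophages, fell from 6.15 to 7.67 CPM (median 6.52) to 2.47 to 4.53 (median 3.37) without overlap, by 0.96 (standard error 0.30, adjusted p = 0.0149, edgeR). H2-K1 fell by 0.27 (adjusted p = 0.0111), B2m by 0.23 (0.0193), Tap1 by 0.42 (0.0455) and Tgtp2 by 1.24 (0.0477; edgeR). Of these Irgm2, H2-K1 and Serpina3g kept their call with any mouse left out, B2m lost it without fasted replicate 1 or refed replicate 5 (adjusted p up to 0.0594), and Tap1 and Tgtp2 lost it in 9 and 7 of 12 fits. The 7 class II genes had log2 differences from -0.95 to -0.43, with 0 called. At an unadjusted p under 0.05 there were 4 of them, beside 5560 of 13945 over all genes (edgeR).

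In WT/Y657* mice 8 genes rose on refeeding and 1 fell, against 31.3% of all genes (17.1% higher, 14.2% lower). Gbp7 rose from 7.25 to 12.2 CPM to 13.4 to 32.7 (median 19.9) without overlap, by 1.16 (standard error 0.24, adjusted p = 3.0e-04, edgeR). Ifi47 rose by 1.11 (adjusted p = 0.00349), Tap2 by 0.62 (1.3e-04) and Irf1 by 0.63 (0.00164; edgeR), also without overlap. Gbp6, Irgm1, Igtp and Tap1 rose by 1.16, 0.54, 1.06 and 0.57 (adjusted p = 0.0170, 0.0097, 0.00952 and 0.00747, edgeR), and Nlrc5 fell by 0.40 (0.0361). With 1 mouse left out at a time, Gbp6 lost its call without refed replicate 2 (adjusted p = 0.0597) and Nlrc5 in 6 of 12 fits. Without refed WT/Y657* replicates 2 and 5, Gbp7 (0.79, adjusted p = 0.0113), Tap2 (0.55, 0.0019), Irf1 (0.47, 0.0303) and Nlrc5 (-0.53, 0.0122) kept their calls, whereas Irgm1 (0.39, 0.0984), Ifi47 (0.67, 0.0879), Igtp (0.69, 0.125), Gbp6 (0.68, 0.212) and Tap1 (0.25, 0.196) lost theirs.

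Between the genotypes the refeeding response differed for 2 of the 34 genes, both higher in WT/Y657* mice, against 2.06% of all genes (0.595% higher, 1.46% lower). They were Tap1 (0.99, standard error 0.23, adjusted p = 0.0188) and Irgm2 (1.13, standard error 0.30, adjusted p = 0.0425, edgeR). Tap1 kept its call with any 1 of 24 mice left out and Irgm2 lost it in 17 of 24 fits; without refed WT/Y657* replicates 2 and 5 neither was called (0.67, adjusted p = 0.0712, and 0.79, 0.167), and the count over all genes went from 287 to 114. This comparison shares the fasted mice with the one before. In refed against fed mice 0 of the 34 differences between genotypes were called, against 0.179% of all genes (0.129% higher, 0.0502% lower). At an unadjusted p under 0.05 there were 4, beside 1506 of 13945 over all genes. DESeq2 called 0, and 83 over all genes.

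Other genes of the pathway, 72 in all of which 65 were tested, were taken from lists of the receptor and signalling chain, of peptide processing, of further MHC genes, of further GTPases and of further targets. In fed mice 3 rose and 1 fell, in fasted mice 2 rose and 4 fell, and in refed mice 0 were called, beside the shares of all genes given above (2.37%, 13.1% and 0.0287%).

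The receptor genes Ifngr1 and Ifngr2 and the kinases Jak1 and Jak2 were not called between genotypes in the fed or the fasted state, with log2 differences from -0.21 to 0.28. Irf9, a DNA-binding subunit in the type I interferon response, fell by 0.50 in fasted WT/Y657* mice (standard error 0.12, adjusted p = 0.00404, edgeR). Its range was 45.7 to 55.2 CPM in wild-type and 29.2 to 49.3 in WT/Y657* mice. Gbp2b is here the gene deposited under the symbol Gbp1, a synonym, at the position of Gbp2b. Its identity is uncertain, as is that of Gbp5 and Gbp6. Gbp4 and Gbp2b rose in fed WT/Y657* mice by 1.34 and 1.56 (adjusted p = 0.0207 and 0.0480, edgeR), and had differences of 0.77 (0.372) and 1.26 (0.325) without fed WT/Y657* replicates 3 and 4. The fasting response differed between genotypes by -2.67 for Gbp2b (adjusted p = 0.0113) and by -2.68 for Gbp10 (0.0173), and by -2.38 (0.0422) and -1.61 (0.0869, edgeR) without those mice. Ifi30, a lysosomal thiol reductase that prepares antigens for class II, rose by 0.64 (adjusted p = 0.0298) and Pdia3, a disulphide isomerase of the peptide-loading complex and of the endoplasmic reticulum in general, fell by 0.49 (0.0298; edgeR); neither was called without those mice (0.43, adjusted p = 0.351, and -0.42, 0.267). In fasted WT/Y657* mice the class I gene H2-T22 fell by 0.33, the trimming peptidase Erap1 by 0.24 and the GTPase Gm4951 by 0.23, while Creb1 rose by 0.27 and the adhesion molecule Vcam1 by 1.31 (adjusted p from 0.00436 to 0.0313, edgeR). Creb1 and Irf9 kept their calls with any mouse left out, H2-T22 lost its call only without WT/Y657* replicate 2 (adjusted p = 0.0667), and Erap1, Gm4951 and Vcam1 lost theirs in 4, 5 and 5 of 12 fits. Of the 10 genes of peptide processing 7 fell in fasted wild-type mice and 9 did in the WT/Y657* genotype, against 17.5% and 17.7% of all genes. Pdia3 fell by 1.20 and 0.68. The immunoproteasome subunits Psmb8 and Psmb9 had log2 differences of -0.46 and -0.44 in wild-type animals (not called). For WT/Y657* they were -1.17 and -1.13 (both called, edgeR).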

How the data were processed

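Liver RNA was sequenced on 36 mice from stranded total RNA libraries with single reads of 50 bases. The authors deposited estimated counts per gene and mouse without normalization; 3.64% of counts above 0 had a fractional part, and values were rounded to whole numbers. The submitters' processing notes name Cuffdiff, SAMtools, featureCounts and edgeR, with versions not given in the sources used here, and the build mm9. The gene positions in the table are those of GRCm38 for 16061 of the 36341 genes found in GENCODE M21, so that annotation was used for position, length and sequence. A second deposited table of the authors' fitted values was not used. Groups came from the labels, and replicates were numbered in deposit order, which pairs no mice.

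Counts were fitted with edgeR 4.0.16 in R 4.3.3 (filterByExpr by group, TMM scaling, glmQLFit with robust dispersions, 1 coefficient per group over 36 libraries, glmQLFTest, two-sided), and p-values were adjusted over 13945 genes by the Benjamini-Hochberg method. P-values rest on the spread between mice within groups, taken for each gene as 1 value shared by the 6 groups. The groups were not equal in spread: for H2-Aa the SD was 28.8 CPM in fed WT/Y657* and 2.30 in fed wild-type mice. The other settings tried were edgeR's likelihood ratio test, DESeq2 1.42.0, RLE scaling, library size alone, no filter, only the libraries of a contrast, blocks of mouse numbers, and leaving out each mouse; leaving out fed WT/Y657* replicates 3 and 4, or refed WT/Y657* replicates 2 and 5, was chosen after seeing the data. The fit was tested on simulated data for the fed comparison, with the same spread in every group. It recovered 67 of 99 genes changed by 1 on the log2 scale and 45 of 98 changed by 0.5, with 2 false calls. Genes that were not called may therefore still differ. No pair of mice of a group agreed within sampling noise. Tables and plots were made with Python 3.11.15, pandas 2.3.3, numpy 2.4.6 and matplotlib 3.10.9.

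The text names members called in any comparison of genotypes or response difference, and for each list the 3 with the smallest p in fed mice and in the wild-type fasting and refeeding responses. From the pathway lists it names genes called between genotypes, or up to 2 with the smallest p. The members and all lists were chosen with earlier results of these data known. Levels in individual fed and refed mice were added after their values were seen, and 1 further gene of the pathway lists is not reported here.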

Additional observations from a re-analysis of the deposited data

Results flagged for a closer look

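In 20 of 204 groups of 6 mice examined (34 genes in 6 groups) 1 mouse lay far from the other 5, with a gap to its neighbour above Dixon's 95% critical value as a share of the group's whole range. Chance alone gives about 1 in 20 such groups, and genes of the set are not independent of one another. For each, the level of the mouse, the range of the other 5 and the gap as a share of the range are given.

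In refed WT/Y657* replicate 2, Gbp9 was at 12.8 CPM against 4.94 to 7.86 (gap 0.630) and Tgtp1 was at 7.96 CPM against 0.363 to 2.29 (gap 0.747). In that mouse, H2-DMb1 was at 6.29 CPM against 1.81 to 3.0 (gap 0.733) and Cxcl9 was at 15.2 CPM against 2.18 to 6.76 (gap 0.649). In that mouse, Irf8 was at 15.6 CPM against 5.59 to 7.64 (gap 0.795). In fed WT/Y657* replicate 4, Gbp6 was at 37.2 CPM against 7.62 to 17.6 (gap 0.662) and Nlrc5 was at 27.5 CPM against 18.4 to 21.7 (gap 0.636). In that mouse, Cd274 was at 7.61 CPM against 1.41 to 3.70 (gap 0.631). In refed wild-type replicate 3, H2-D1 was at 510 CPM against 313 to 369 (gap 0.715) and Tap2 was at 31.2 CPM against 17.9 to 22.2 (gap 0.676). In that mouse, Tapbp was at 107 CPM against 74.8 to 85.5 (gap 0.673). In fasted wild-type replicate 3, Gbp2 was at 10.2 CPM against 6.00 to 7.16 (gap 0.726) and Cd274 was at 4.42 CPM against 2.03 to 2.92 (gap 0.626). In fed wild-type replicate 5, Cxcl10 was at 5.79 CPM against 0.816 to 1.91 (gap 0.780) and Serpina3g was at 6.80 CPM against 3.58 to 4.72 (gap 0.645). In fed wild-type replicate 3, Gbp7 was at 22 CPM against 16.6 to 18.2 (gap 0.710). In refed WT/Y657* replicate 4, Iigp1 was at 162 CPM against 272 to 334 (gap 0.641). In fed wild-type replicate 4, Tgtp2 was at 0.171 CPM against 0.471 to 0.571 (gap 0.751). In fasted WT/Y657* replicate 5, H2-K1 was at 1023 CPM, above the other 5 (gap 0.702). In refed wild-type replicate 6, Cxcl10 was at 2.90 CPM against 1.47 to 1.75 (gap 0.801).

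The response to the fast differed between the genotypes by the interaction term of the fit (log2 difference of WT/Y657* from wild-type, adjusted p by edgeR) for Gbp3 (-1.96, 0.00826), Gbp6 (-1.97, 0.0286), Gbp7 (-1.38, 0.0146), Irgm1 (-0.86, 0.0254), Irgm2 (-1.11, 0.0290), Igtp (-1.74, 0.0217), H2-T23 (-0.53, 0.0286), Tap1 (-0.95, 0.0142), H2-Aa (-1.88, 0.0355), H2-Eb1 (-1.89, 0.0484), H2-DMa (-1.72, 0.0394), Cd74 (-1.74, 0.0310), Irf1 (-0.78, 0.0315), the pathway genes Irf9 (-0.57, 0.0436), Gbp2b (-2.67, 0.0113) and Gbp10 (-2.68, 0.0173). The response to refeeding differed likewise for Irgm2 (1.13, 0.0425) and Tap1 (0.99, 0.0188).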

How the results depend on the processing

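No paired analysis was possible because the groups share no replicate numbers in the labels; mouse numbers are unique, and blocks of mouse numbers were used in their place. Of the 82 single-gene calls tried under each setting, 82 were kept by DESeq2 and by RLE scaling, 80 by the likelihood ratio test, 70 by library size alone, 57 without a filter, 60 with only the libraries of the contrast and 37 with mouse number blocks. With those blocks 3 fasting responses of WT/Y657* mice changed sign and were not called: Gbp2 0.18, Cd74 0.020 and Cxcl9 0.51. In that fit the highest run of fed mice, all WT/Y657*, had its own term. The fed WT/Y657* level was therefore that of the 3 mice of the middle run. Their means were 4.95 CPM for Gbp2, 55.5 for Cd74 and 3.62 for Cxcl9, beside 5.56, 56.3 and 5.20 in fasted WT/Y657* mice. What a run stands for is not given in the labels.

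The counts below are of the 34 genes, with the count over all genes tested in brackets. For the fits that left out each mouse in turn, the counts over all genes are not given here. In fed mice, 6 (330) became 14 (516) by the likelihood ratio test, 16 (644) by DESeq2, 17 (756) by library size alone, 3 (207) without a filter, 0 (0) with mouse number blocks, 0 (30) with only the fed libraries and 0 (15) without fed WT/Y657* replicates 3 and 4. In fasted mice, 6 (1821) became 10 (1534) with only the fasted libraries. For fasting in wild-type mice, 7 (4464) became 3 (3974) without a filter, 3 (2834) with blocks and 16 (4657) with only those libraries. For fasting in WT/Y657* mice, 20 (4591) became 7 (4418) with blocks, 12 (3483) with only those libraries and 8 (4167) without fed WT/Y657* replicates 3 and 4. For refeeding in wild-type mice, 6 (4217) became 2 (4328) by library size alone, 11 (4464) with blocks and 14 (4784) with only those libraries, and in WT/Y657* mice 9 (4371) became 5 (3881) without refed WT/Y657* replicates 2 and 5. For the genotype difference in the fasting response, 13 (607) became 21 by DESeq2, 6 (386) without a filter, 0 (109) with blocks and 1 (327) without fed WT/Y657* replicates 3 and 4. In the refeeding response, 2 (287) became 1 (152) without a filter, 4 (295) with only those libraries and 0 (114) without refed WT/Y657* replicates 2 and 5. Leaving out each mouse in turn gave 0 to 16 genes in fed, 3 to 8 in fasted and 0 in refed mice, 4 to 6 and 11 to 23 for fasting in wild-type and WT/Y657* mice, 3 to 10 and 8 to 10 for refeeding, and 3 to 17, 1 to 3 and 0 for the 3 differences. Scaling by library size alone shifted the median of all genes in fed mice by 0.11 and their split from 169 higher and 161 lower to 672 and 84; the 6 genes called in fed mice stayed positive under every alternative. Low counts limit Socs1 and Ifng.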
